A study of Mus musculus with 10 samples.

Results

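The 10 genes described here supply the oocyte with its linker histones, its replacement histones and some of the proteins that carry or process them. They are the linker histones H1foo and H1f0, the H2A.Z genes H2afz and H2afv, the H3.3 genes H3f3a and H3f3b, the histone messenger binding protein Slbp, and the histone chaperones Npm2, Nasp and Hira. They were chosen by name out of 35501 annotated genes, with results of TubA against control in these same libraries already known, so their differences between the groups are given as a description. All 10 were found in the files and all 10 passed the filter on low values, which asked for 1 TPM or more on average.

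The study measured RNA in mouse oocytes arrested at metaphase II, when the egg is ready to be fertilised. One group of 5 libraries came from oocytes exposed to TubA at 0.1 µg/mL for 16 h, and the other group of 5 libraries from control oocytes, whose labels name no vehicle. In both groups the donors were ICR mice 6 to 8 weeks old, from whose ovaries oocytes with an intact germinal vesicle were taken and matured in culture for 16 h. Each library was amplified from a single oocyte by Smart-seq2, a full-length method that copies polyadenylated RNA. TubA usually stands for tubastatin A, which inhibits the deacetylase HDAC6, but the labels give the short name alone. The labels name no animal or culture behind a library, so n counts libraries, and the spread between them may be technical.

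A growing oocyte packs its DNA with histones made largely outside S phase, and it stores histones, histone messengers and chaperones for the early embryo. H1foo is the linker histone of oocytes and early embryos, and the somatic linker histones take its place as the embryo develops. The variants H2A.Z and H3.3 are put into chromatin without DNA replication, H3.3 by chaperones that include HIRA, and their messengers end in a poly(A) tail. Messengers of the histones used in S phase end in a stem-loop that SLBP binds. Nucleoplasmin 2, the product of Npm2, is a maternal chaperone needed for normal chromatin organisation in the egg and early embryo, and NASP carries linker histones and H3 with H4.

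Levels are in TPM, which is scaled by transcript length and to the same total in every library. Levels of different genes can be set side by side as polyadenylated RNA that was copied. How well each gene's messenger was copied was not measured, so ranks and ratios between genes carry this limit. A TPM is a share of a library's RNA and not an amount per oocyte. Sequencing depth is unknown, as TPM does not keep it. Between 10521 and 11698 genes reached at least 1 TPM in a library. The 9 oocyte markers summed to between 15801 and 28677 TPM in TubA libraries and between 11344 and 25566 TPM in control libraries. Of 9 markers of cumulus and granulosa cells, 8 averaged under 1 TPM, with Amh and Foxl2 listed at 0 in every library. The exception was Cyp19a1, at 12.6 ± 3.79 TPM with TubA and 10.5 ± 2.60 TPM in controls. All 9 summed to 9.84 to 19.5 TPM in TubA libraries and 8.32 to 14.7 TPM in control libraries, mostly from Cyp19a1. The 5 markers of theca and stroma summed to 1.77 to 12.8 TPM in TubA libraries and 2.41 to 16.5 TPM in control libraries, and those of blood and endothelium to 22.7 to 38.0 TPM with TubA and 22.8 to 55.9 TPM in controls.

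Together the 10 genes held 2.84% ± 0.194 of the TPM in TubA libraries and 2.92% ± 0.462 in control libraries (SD, n = 5 each). H1foo and Slbp made up most of this share, and their levels exceeded those of H2afv and Hira by more than 3 orders of magnitude. None of the 10 passed the threshold of limma's moderated test with Benjamini-Hochberg adjustment over 11664 genes, and the adjusted p was 0.9999 for each. Over all genes tested, 0.00857% passed, which was 1 gene, the ribosomal protein pseudogene Rpl36-ps1. At an unadjusted limma p under 0.05 there was 1 of the 10, H2afz, against 2.51% of all genes tested. An exact permutation test of the mean difference also gave H2afz among the 10, and 299 of the 11664 genes. That test gives any gene whose groups do not overlap its smallest p. For H2afz it restates the lack of overlap given below and adds no support. Without TubA replicate 5, and without control replicate 4, the count of members at an unadjusted limma p under 0.05 was 2. Over all genes tested the counts were 314 without TubA replicate 5 and 403 without control replicate 4. H2afz was also the single member whose TubA and control libraries did not overlap, as was true of 0.454% of all genes in either direction and of 0.266% with TubA lower. Of the members, 6 were lower and 4 higher in TubA libraries, with a median difference of -0.08 on the log2(TPM + 1) scale. The median over all genes tested was 0.01, and 80% of them lay between -0.40 and 0.40.

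**Figure D1:**
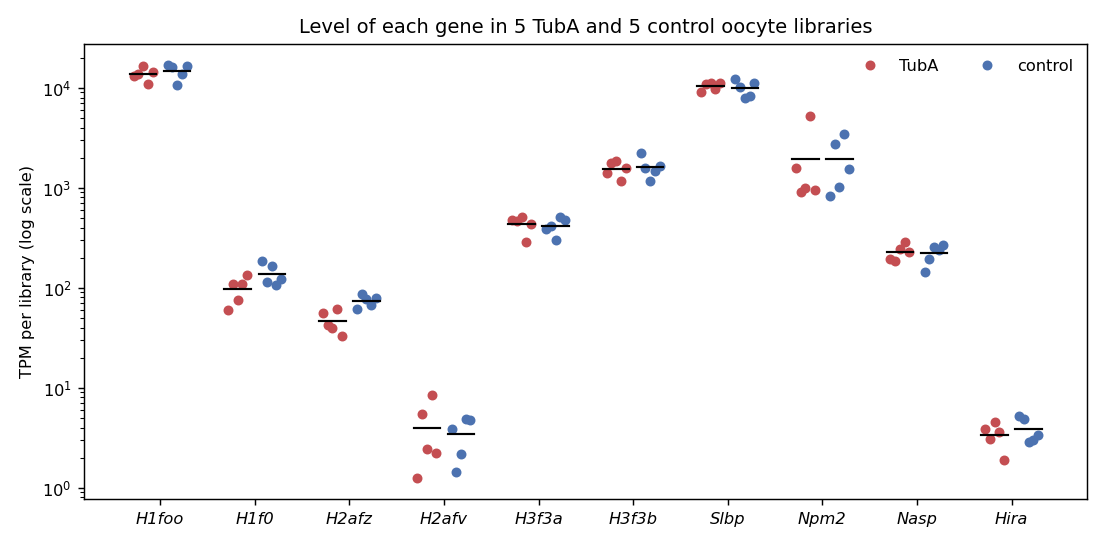
Level of each of the 10 genes in each library, in TPM on a log10 axis, with TubA libraries (red) left of control libraries (blue) for each gene and the group mean as a black line. H1foo and Slbp lie near the top of the scale, H2afv and Hira under 10 TPM, and Npm2 spreads most among the abundant genes.

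H1foo, the oocyte linker histone, was among the most abundant messengers in every library, ranking between 3 and 5 by TPM. It lies on chromosome 6 at 115944938 to 115950236 on the plus strand (GRCm38). Its level was 13133, 13648, 16398, 11009.7 and 14484 TPM in TubA replicates 1 to 5. In control replicates 1 to 5 it was 17051, 16048, 10749, 13879.8 and 16617 TPM. The lowest and the highest library were both controls, so the TubA values lay inside the control range. The mean was 13734 ± 1965 TPM with TubA and 14869 ± 2606 TPM in controls, a difference of -0.11 ± 0.16 on the log2(TPM + 1) scale (SE, 95% interval -0.45 to 0.23).

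A pair of transcripts accounted for nearly all H1foo RNA. H1foo-201 held 58.9% of the gene's TPM and H1foo-203 held 40.1%, and they differ at the end of exon 4, which runs from 115949686 to 115949741 in H1foo-201 and on to 115949745 in H1foo-203. The 4 added bases shorten the annotated coding sequence from 912 bases in H1foo-201 by 174, to 738 bases in H1foo-203. The join of exon 4 to exon 5 is printed for both from the GENCODE M21 transcripts, 30 bases on each side, with the added bases in capitals, since this short stretch separates most of the gene's RNA into its main forms.
H1foo-201: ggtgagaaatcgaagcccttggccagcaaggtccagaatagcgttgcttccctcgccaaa
H1foo-203: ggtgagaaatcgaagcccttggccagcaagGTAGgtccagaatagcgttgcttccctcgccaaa
The share of H1foo-201 was 59.7% ± 3.22 in TubA libraries and 58.5% ± 3.10 in control libraries, with all libraries between 56.1% and 63.9%. The share of H1foo-203 was 39.3% ± 3.21 with TubA and 40.6% ± 3.24 in controls. The balance of the forms was steadier from library to library than the level of the gene.

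H1f0, the linker histone of slowly dividing and differentiated somatic cells, was present at a level lower by about 2 orders of magnitude than H1foo. It has 1 exon and 1 annotated transcript, on chromosome 15 at 79028450 to 79030504 on the plus strand. TubA replicates 1 to 5 had 60.5, 110.1, 75.4, 108 and 135 TPM. Control replicates 1 to 5 had 184, 114, 166, 106 and 121 TPM. The lowest 2 libraries were TubA and the highest 2 were controls, but the groups overlapped between 106 and 135 TPM. The mean was 97.9 ± 29.7 TPM with TubA and 138 ± 34.6 TPM in controls, a difference of -0.52 ± 0.25 (SE, 95% interval -1.06 to 0.02). The size of this difference moved with the libraries used. Clustering of whole transcriptomes put TubA replicates 1 and 2 with control replicates 1 to 3, and the other 5 libraries in a second set. The H1f0 difference was -0.88 in the first set and -0.13 in the second. Without TubA replicate 1 it was -0.36, and with limma's library weights -0.31.

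The ratio of H1foo to H1f0 within a library was 153 ± 58.8 in TubA oocytes and 113 ± 33.3 in control oocytes, with a range of 64.7 to 217 over all libraries. The highest 2 ratios were in TubA replicates 1 and 3 and the lowest was in control replicate 3. The linker histones of the histone clusters were listed at lower TPM. Smart-seq2 copies polyadenylated RNA, and messengers of this class mostly end in a stem-loop without a poly(A) tail, so these values are no measure of their whole level beside H1foo and H1f0. Hist1h1a averaged 6.13 ± 3.71 TPM with TubA and 5.96 ± 3.64 TPM in controls, and Hist1h1c 4.12 ± 1.26 TPM with TubA and 2.39 ± 1.69 TPM in controls. To complete the list, Hist1h1d and Hist1h1e averaged under 1 TPM, and Hist1h1b and Hist1h1t were listed at 0 in every library.

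H2A.Z is encoded by a pair of genes, H2afz for H2A.Z.1 and H2afv for H2A.Z.2, and H2afz was the member in which the groups stood furthest apart. H2afz lies on chromosome 3 at 137864487 to 137866922 on the plus strand. Its level was 56.5, 42.9, 39.5, 61.0 and 32.9 TPM in TubA replicates 1 to 5. In control replicates 1 to 5 it was 61.2, 87.5, 77.1, 67.8 and 78.7 TPM. Every TubA library was below every control library, but the gap between TubA replicate 4 and control replicate 1 was only 60.97 against 61.18 TPM. The mean was 46.6 ± 11.8 TPM with TubA and 74.5 ± 10.2 TPM in controls, a ratio of 0.625. The difference was -0.69 ± 0.21 on the log2(TPM + 1) scale (SE, 95% interval -1.14 to -0.24). It did not pass after adjustment over all genes, as given above.

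Over 22 alternative analyses the H2afz difference lay between -0.84 with library weights and -0.58 without TubA replicate 5. Groups that do not overlap keep this sign however libraries are left out, split or weighted, so the sign adds no support. Within the set of libraries with TubA replicates 1 and 2 the difference was -0.59, and within the other set -0.75. The main transcript, H2afz-201, averaged 42.4 ± 12.2 TPM with TubA and 66.5 ± 11.7 TPM in controls. H2afz-207, with 69 fewer coding bases, averaged 4.13 ± 1.64 TPM with TubA and 8.00 ± 5.43 TPM in controls. Of the 31-base words of H2afz transcripts, 33.5% also occur in Tmcc1, through a retained-intron transcript of that gene which averaged 0.214 TPM. With Tmcc1 added in full, the values were 43.6 to 68.3 TPM in TubA libraries and 71.8 to 97.2 TPM in control libraries, and the groups again did not overlap.

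**Figure D2:**
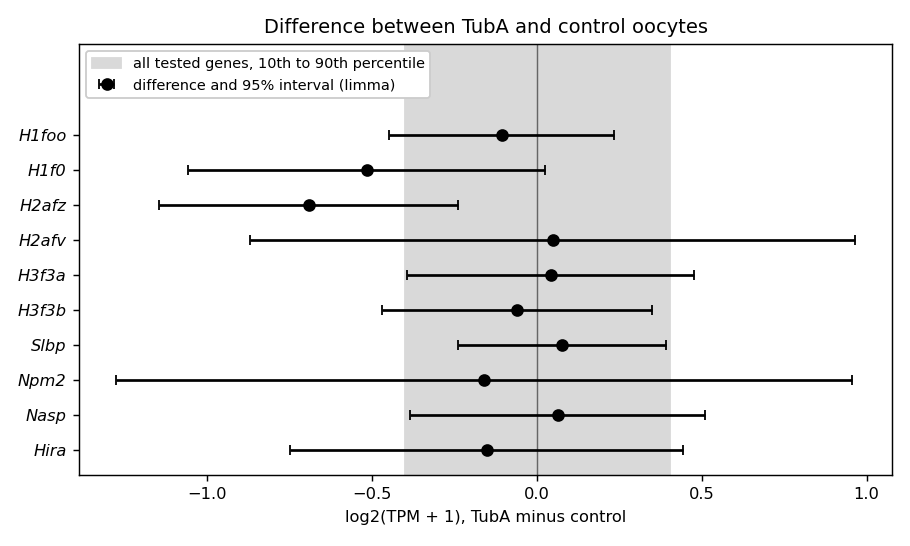
Difference of each of the 10 genes between TubA and control libraries on the log2(TPM + 1) scale (TubA minus control), with its 95% interval from limma, and the 10th to 90th percentile of all genes tested in grey. H2afz, at -0.69, is the member whose interval leaves out 0, and no member passed the adjusted threshold.

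H2afv was one of the low members. It lies on chromosome 11 at 6427229 to 6444443 on the minus strand and ranked between 7007 and 11016 in the libraries. Its level was 1.24, 5.47, 2.46, 8.48 and 2.21 TPM in TubA replicates 1 to 5, and 3.86, 1.45, 2.17, 4.90 and 4.81 TPM in control replicates 1 to 5. The groups overlapped through most of their range. The mean was 3.97 ± 2.97 TPM with TubA and 3.44 ± 1.56 TPM in controls, a difference of 0.05 ± 0.42 (SE, 95% interval -0.87 to 0.97) on a scale that understates changes of low genes. The ratio of H2afz to H2afv was 18.3 ± 15.7 in TubA oocytes and 28.4 ± 19.9 in control oocytes, with single libraries from 7.19 to 60.3.

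Despite encoding nearly the same protein, the H2A.Z genes are written in different codons, and so are the H3.3 genes. The coding sequences of H2afz-201 and H2afv-202 are 384 bases long and 79.2% identical, and 69 of their 80 differences fall at codon position 3. H2afv-202 was the minor form, at 20.6% of the gene's TPM. H2afv-201, with a coding length of 270 bases, held 79.4%. Those of H3f3a-205 and H3f3b-201 are 408 bases long and 76.7% identical, with 81 of 95 differences at codon position 3. No 31-base word is shared in either pair. The first 60 coding bases of each, from the GENCODE M21 transcripts, show how the values of the genes in a pair can be kept apart, with the bases that differ from the partner in capitals.
H2afz: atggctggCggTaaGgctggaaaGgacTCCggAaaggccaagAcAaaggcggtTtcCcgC
H2afv: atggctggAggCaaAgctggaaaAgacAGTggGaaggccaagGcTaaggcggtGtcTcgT
H3f3a: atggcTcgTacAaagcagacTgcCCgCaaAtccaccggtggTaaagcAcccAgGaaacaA
H3f3b: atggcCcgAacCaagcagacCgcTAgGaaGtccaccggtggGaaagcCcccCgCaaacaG
Each pair has 13 differences in these 60 bases.

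H3f3b was the more abundant of the H3.3 genes and ranked between 54 and 120 in the libraries. It lies on chromosome 11 at 116021912 to 116027962 on the minus strand. TubA replicates 1 to 5 had 1404, 1768, 1844, 1165 and 1572 TPM. Control replicates 1 to 5 had 2237, 1586, 1175, 1485 and 1668 TPM. The highest library was a control and the lowest was TubA, with the rest mixed. The mean was 1551 ± 276 TPM with TubA and 1630.3 ± 387 TPM in controls, a difference of -0.06 ± 0.19 (SE, 95% interval -0.47 to 0.35). Nearly all of it, 98.1%, came from H3f3b-201.

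H3f3a lies on chromosome 1 at 180800832 to 180813943 on the minus strand. Its level was 477, 467, 509, 284 and 430.3 TPM in TubA replicates 1 to 5, and 388, 415, 302, 513 and 478 TPM in control replicates 1 to 5. The groups covered almost the same range. The mean was 433 ± 88.2 TPM with TubA and 419 ± 82.2 TPM in controls, a difference of 0.04 ± 0.20 (SE, 95% interval -0.39 to 0.48). This near-zero value joined opposite ones, 0.37 in the set of libraries with TubA replicates 1 and 2 and -0.32 in the other set.

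Unlike H3f3b, H3f3a was divided between a pair of transcripts with the same coding length of 408 bases. The short H3f3a-207, of 724 bases, held 58.7% of the gene's TPM and the long H3f3a-205, of 2841 bases, held 40.7%. The ratio of H3f3b to H3f3a was 3.62 ± 0.424 in TubA oocytes and 3.97 ± 1.08 in control oocytes. H3f3b was the higher gene in every library, with ratios of 2.89 to 5.77. The widest ratio was in control replicate 1.

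**Figure D3:**
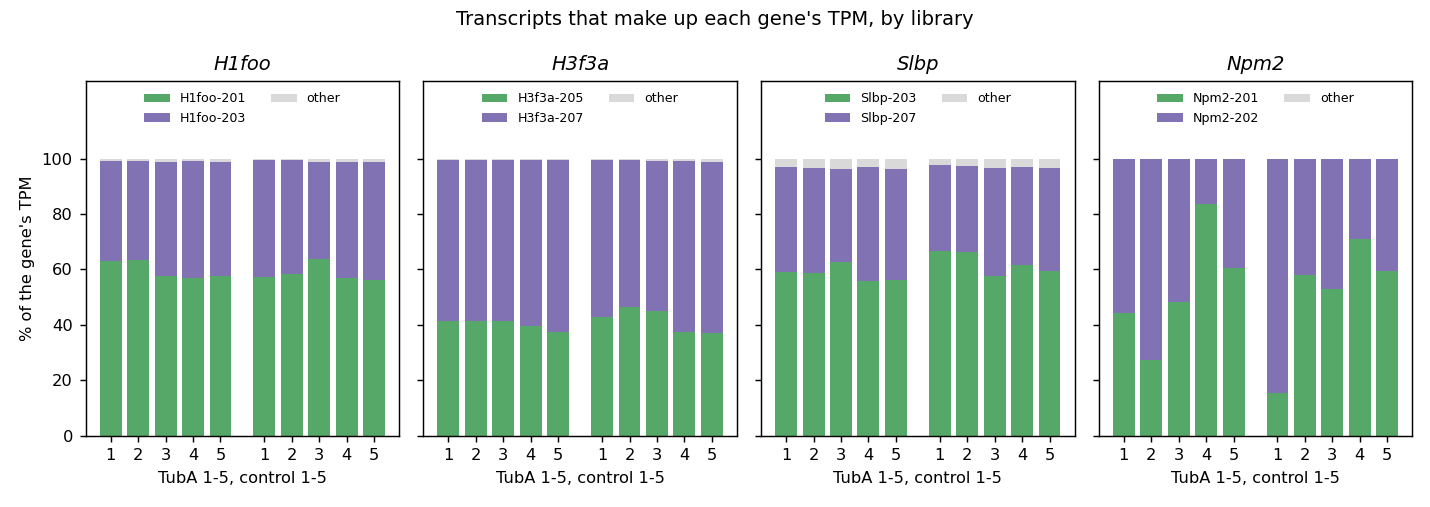
Share of the gene's TPM held by each transcript of H1foo, H3f3a, Slbp and Npm2, in percent, as 1 stacked bar per library, with TubA replicates 1 to 5 left of control replicates 1 to 5. The shares of H1foo, H3f3a and Slbp are close to level across libraries (56.1% to 63.9% for H1foo-201), while the 9-exon transcript of Npm2, in green, changes widely from library to library in both groups.

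Slbp, whose protein binds the stem-loop of S-phase histone messengers, was below H1foo in every library and ranked between 5 and 8. The gene is on the minus strand of chromosome 5, at 33634952 to 33652574. Its level was 9102, 10841, 11203, 9669 and 11118 TPM in TubA replicates 1 to 5. In control replicates 1 to 5 it was 12190.3, 10168, 7912, 8326 and 11159.9 TPM. The TubA values all fell inside the control range. The mean was 10387 ± 945 TPM with TubA and 9951 ± 1825 TPM in controls, a difference of 0.08 ± 0.14 (SE, 95% interval -0.24 to 0.39).

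Slbp-203, a coding transcript, held 60.6% of the gene's TPM, and Slbp-207 held 36.2%. Slbp-207 is annotated as a retained intron, has 2 exons and 805 bases, and carries 180 bases that are intron in Slbp-203. The share of Slbp-207 was 38.1% ± 3.01 in TubA libraries and 34.7% ± 3.56 in control libraries, and that of Slbp-203 was 58.5% ± 2.86 with TubA and 62.3% ± 3.99 in controls. Both differences were close to 1 SD of the libraries and were not tested. From protein-coding transcripts alone the Slbp difference on the log2(TPM + 1) scale was 0.001 in place of 0.08. The level and rank of Slbp given above include Slbp-207.

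The stem-loop that SLBP binds was searched as GGNNCTTTTNAGNGCC on the sense strand of all transcripts. It was found in 48 of 35501 genes, of which 42 were among the 70 genes with names that begin with Hist. None of the 10 genes held it, and 4 of the 6 linker histones of the histone clusters did. The site of Hist1h1c, from its GENCODE M21 transcript on chromosome 13, shows the element that the replacement histones above lack, with the 16 bases of the motif in capitals.
Hist1h1c: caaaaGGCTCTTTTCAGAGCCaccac
Of 9 partners of SLBP in histone messenger processing and translation, 8 were tested and Symk was not analysed here. By limma 0 of the 8 were called, against 0.00857% of all genes tested, and 0 had an unadjusted p under 0.05, against 2.51%. A count of 0 among 8 is near these shares. Mif4gd, which links SLBP to translation, averaged 191 ± 54.0 TPM with TubA and 173 ± 11.5 TPM in controls. Lsm10, a subunit of the U7 particle that cuts histone messengers, averaged 132 ± 66.3 TPM with TubA and 129 ± 82.0 TPM in controls.

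Npm2, the nucleoplasmin of the egg, varied more between libraries than any other abundant member. The gene is on the minus strand of chromosome 14, at 70647302 to 70659244. Its level was 1577, 903, 999.9, 5206 and 961 TPM in TubA replicates 1 to 5. In control replicates 1 to 5 it was 829, 2756, 1013, 3486 and 1536 TPM. High and low libraries occurred in both groups, and the span was 6.28-fold. The mean was 1929 ± 1852 TPM with TubA and 1924 ± 1153 TPM in controls, with a coefficient of variation of 96.0% with TubA and 59.9% in controls. The difference was -0.16 ± 0.51 (SE, 95% interval -1.28 to 0.96). TubA replicate 4 holds much of the TubA mean, and without it the difference was -0.61. With library weights it was -0.75.

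The spread of Npm2 came mainly from 1 of its transcripts. The longer coding transcript, with 9 exons, held 62.4% of the gene's TPM and had 699.6, 246, 483, 4353 and 581 TPM in TubA replicates 1 to 5. In control replicates 1 to 5 it had 129, 1603, 538, 2479.9 and 914 TPM. It spanned 33.9-fold over the libraries. The other transcript, with 6 exons, held 37.6%, at 878, 657, 517, 853 and 380.2 TPM in TubA replicates 1 to 5, and 700.2, 1153, 475, 1007 and 621 TPM in control replicates 1 to 5. That is a span of 3.03-fold. The 6-exon transcript lacks the last 3 exons of the longer one and is annotated as having no stop codon. Its first exon lies within the span of Xpo7 on the same strand, and Xpo7 averaged 4.35 TPM.

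The 9-exon transcript varied from library to library much as did the zona pellucida genes, which encode the coat of the egg. Zp3, the most abundant of them, had 2858, 749.8, 998, 8123 and 1313 TPM in TubA replicates 1 to 5, and 406, 3718, 1170.0, 5363 and 2303 TPM in control replicates 1 to 5. The same TubA library was highest and the same control library lowest for both. Over the 10 libraries, on the log2(TPM + 1) scale, the 9-exon transcript and Zp3 had a Pearson r of 0.98 and a Spearman rho of 0.99, and r was 0.95 without the 2 libraries farthest from the median. For Zp1 and Zp2 r was 0.89 each, with rho of 0.99 for Zp1 and 0.95 for Zp2. With the 6-exon transcript r was 0.49, and 0.64 without the 2 farthest libraries. With Gdf9, an abundant oocyte growth factor, it was -0.03, and -0.40 without them. With H1foo r was -0.39, but 0.23 without the 2 farthest libraries, and with Slbp it was -0.51, and -0.38 without them. These genes were chosen after the values were seen, the values share the same 10 libraries and their scaling, and either library set holds too few libraries for a value of its own.

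**Figure D4:**
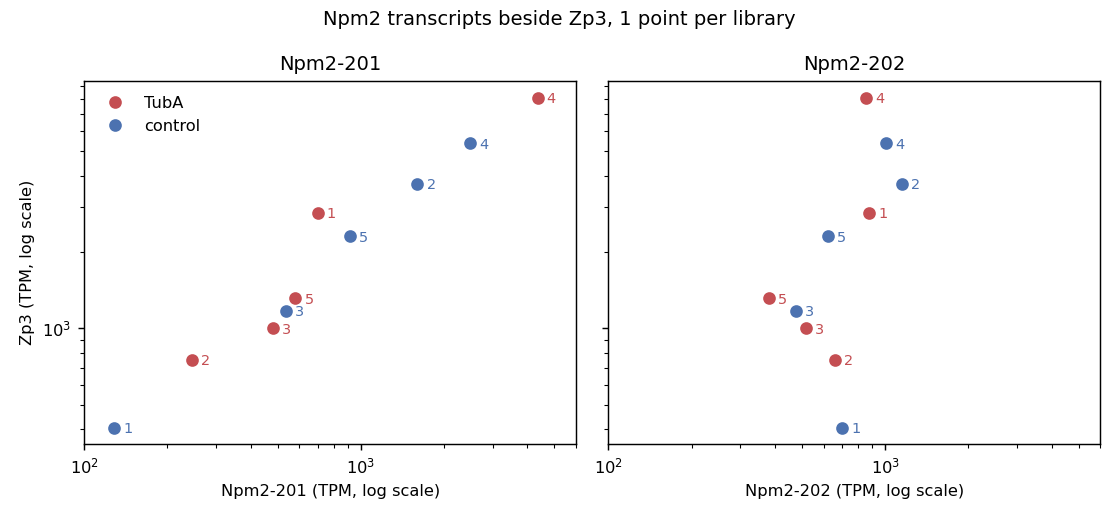
TPM of the 9-exon (left) and the 6-exon (right) transcript of Npm2 against Zp3 in the 10 libraries, on log10 axes, each point a library marked with its replicate number, TubA in red and control in blue. The 9-exon transcript follows Zp3 over its 33.9-fold span in both groups, while the 6-exon transcript stays within 3.03-fold.

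Nasp, a chaperone of linker histones and of H3 with H4, was intermediate in level. Its position is chromosome 4 at 116601052 to 116627941 on the minus strand. Its level was 196, 184, 245, 285 and 226 TPM in TubA replicates 1 to 5, and 142, 193, 256, 241 and 269 TPM in control replicates 1 to 5. The groups overlapped over most of their range, with a mean of 227 ± 40.3 TPM with TubA and 220.4 ± 52.3 TPM in controls. The difference was 0.06 ± 0.21 (SE, 95% interval -0.38 to 0.51). Nasp-201 held 85.1% of the gene's TPM, and Nasp-202, with 975 fewer coding bases, held 13.6%.

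Hira, whose protein places H3.3 into chromatin, was listed at a few TPM. It lies on chromosome 16 at 18877037 to 18970309 on the plus strand. Its level was 3.87, 3.07, 4.56, 3.63 and 1.88 TPM in TubA replicates 1 to 5, and 5.19, 4.89, 2.89, 3.02 and 3.37 TPM in control replicates 1 to 5. The highest 2 values were controls and the lowest was TubA, with overlap between. The mean was 3.40 ± 1.01 TPM with TubA and 3.87 ± 1.09 TPM in controls, a difference of -0.15 ± 0.27 (SE, 95% interval -0.75 to 0.44). Most of this RNA was not assigned to the full coding transcript. Hira-209, a processed transcript of 12 exons of which 9 are identical to exons of Hira-201, held 79.7% of the gene's TPM. Hira-201, with 25 exons, held 9.15% and stayed between 0 and 0.794 TPM, and Hira-207, a processed transcript, held 6.94%. From protein-coding transcripts alone the difference was 0.21, so its sign depended on which transcripts were summed.

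The partners of HIRA were far more abundant than Hira itself. Asf1a, which hands H3 and H4 to other chaperones, averaged 1616 ± 367 TPM with TubA and 1665 ± 326 TPM in controls. Atrx, which works with DAXX in a separate H3.3 pathway, averaged 591 ± 127 TPM with TubA and 518 ± 199 TPM in controls. Of the 7 genes of these pathways, 2 were lower and 5 higher in TubA libraries, with a median difference of 0.04. Among 8 chaperones of H3 and H4 linked to DNA replication the median was 0.11, and the histone binding protein Rbbp7 was the most abundant, at 7607 ± 816 TPM with TubA and 7738 ± 833 TPM in controls. Mcm2, a helicase subunit that also holds H3 and H4, averaged 187 ± 24.5 TPM with TubA and 170.5 ± 34.4 TPM in controls.

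Around H2afz, the 11 genes that exchange H2A.Z in and out of chromatin had a median difference of -0.01, with 6 lower and 5 higher in TubA libraries. Vps72, an H2A.Z binding subunit of the loading complexes, averaged 791 ± 151 TPM with TubA and 886 ± 141 TPM in controls. Ruvbl2, an ATPase of the same complexes, averaged 229 ± 57.9 TPM with TubA and 187 ± 44.4 TPM in controls. Anp32e, which removes H2A.Z, had 14.0 ± 8.40 TPM with TubA and 25.1 ± 11.9 TPM in controls, a difference of -0.93 ± 0.47 (SE), and is named here after its values were seen. Among 10 other acidic and H2A-H2B chaperones the median was -0.15, with 8 lower and 2 higher. Anp32b averaged 1084 ± 339.9 TPM with TubA and 1130.0 ± 298 TPM in controls, and the nucleolar chaperone Npm1 276 ± 63.0 TPM with TubA and 329 ± 26.3 TPM in controls.

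Of 9 other variants made outside replication, 5 were tested and their median difference was -0.03. Cenpa, the centromeric H3, averaged 129 ± 37.7 TPM with TubA and 134 ± 46.8 TPM in controls. H2afx, the variant that is phosphorylated at DNA breaks, averaged 92.5 ± 70.8 TPM with TubA and 78.7 ± 32.6 TPM in controls. To complete the list, the testis linker histones H1fnt and Hils1, and H2afy3, were listed at 0 in every library. Over the 7 lists, 51 of 60 genes were tested, 25 were lower and 26 higher in TubA libraries, and the median difference was 0.01. By limma 0 of the 51 were called and 0 had an unadjusted p under 0.05, and 0 had groups without overlap. The shares over all genes tested were 0.00857% called, 2.51% at an unadjusted p under 0.05 and 0.454% without overlap, so counts of 0 among 51 are near the background. These lists, like the 10 genes, were drawn up with earlier results of these libraries known.

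**Figure D5:**
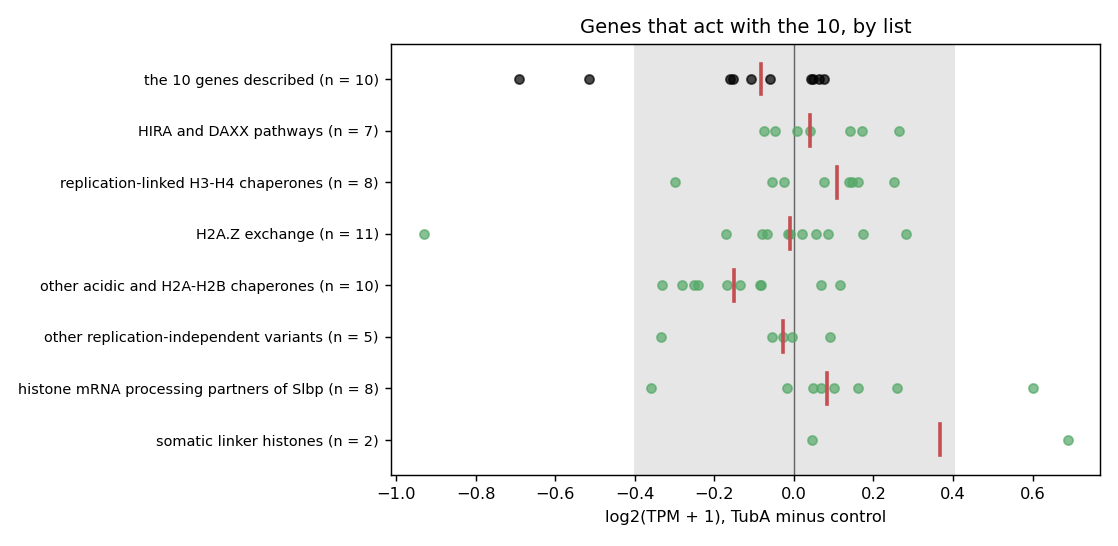
Differences between TubA and control libraries on the log2(TPM + 1) scale (TubA minus control) for the tested genes of the 7 related lists and for the 10 genes themselves, each point a gene, each red line the list's median, and the grey band the 10th to 90th percentile of all genes tested. The list medians lie between -0.15 and 0.37, and the last of these rests on 2 genes.

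The genes closest to H1foo and to H2afz in their variation were sought among 5834 coding genes that averaged 10 TPM or more, with predicted loci (Gm and Rik names) left out, on the log2(TPM + 1) scale after each group's mean was subtracted. Nearest to H1foo were Smc6 with r of 0.99, Pinx1 with r of 0.98 and Stard3nl with r of 0.97 over 10 libraries, and r was 0.97 for Smc6, 0.94 for Pinx1 and 0.89 for Stard3nl without the 2 libraries farthest from the median. Nearest to H2afz were Ufd1 with r of 0.95, Atg5 with r of 0.90 and Mob2 with r of 0.90. Without the 2 farthest libraries these were 0.97 for Ufd1, 0.77 for Atg5 and 0.84 for Mob2. The points share their libraries and the TPM scaling, and these are the highest of 5834 correlations for each member.

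The promoters of the linker histones and of the H2A.Z genes are printed because the genes of each pair differed so widely in level. Each is the 250 bases before the RefSeq start (GRCm38.p6), read on the gene's strand, with CCAAT and its reverse ATTGG in capitals. RefSeq names H1foo as H1f8, H2afz as H2az1 and H2afv as H2az2. The windows are chr6:115944681-115944930 on the plus strand for H1foo, chr15:79027962-79028211 on the plus strand for H1f0, chr3:137864237-137864486 on the plus strand for H2afz, and chr11:6444444-6444693 on the minus strand for H2afv.
H1foo: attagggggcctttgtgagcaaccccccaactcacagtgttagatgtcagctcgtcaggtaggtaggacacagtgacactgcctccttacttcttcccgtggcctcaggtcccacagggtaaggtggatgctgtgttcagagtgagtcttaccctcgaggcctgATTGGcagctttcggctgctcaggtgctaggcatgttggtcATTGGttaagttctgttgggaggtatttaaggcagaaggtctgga
H1f0: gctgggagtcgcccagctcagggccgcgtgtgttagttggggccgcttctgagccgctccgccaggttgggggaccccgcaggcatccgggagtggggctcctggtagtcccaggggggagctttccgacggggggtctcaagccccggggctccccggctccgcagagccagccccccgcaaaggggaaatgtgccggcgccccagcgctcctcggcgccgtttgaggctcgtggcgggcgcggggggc
H2afz: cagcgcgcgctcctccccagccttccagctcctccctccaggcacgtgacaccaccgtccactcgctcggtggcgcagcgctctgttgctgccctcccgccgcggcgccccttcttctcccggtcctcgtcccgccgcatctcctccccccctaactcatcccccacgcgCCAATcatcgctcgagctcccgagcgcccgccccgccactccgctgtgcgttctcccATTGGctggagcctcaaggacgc
H2afv: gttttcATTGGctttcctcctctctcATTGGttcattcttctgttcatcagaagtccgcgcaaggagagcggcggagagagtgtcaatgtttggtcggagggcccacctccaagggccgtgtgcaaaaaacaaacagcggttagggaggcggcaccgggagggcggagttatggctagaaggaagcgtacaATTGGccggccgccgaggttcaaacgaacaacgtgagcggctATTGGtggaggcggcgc
The oocyte gene H1foo had a window of 53.2% G and C with 4 CG dinucleotides, close to the median of 52.4% and 6 over 32851 RefSeq promoters. H1f0 had 74.4% with 24 CG, H2afz 71.2% with 28 CG, and H2afv 57.2% with 19 CG. CCAAT occurred on either strand 2 times in H1foo, 0 times in H1f0, 2 times in H2afz and 4 times in H2afv, while 33.8% of all promoters of this length held it at least once. Of the 9 members with a promoter in the table, H3f3b was the one with TATAAA, which 12.4% of all promoters held, and it also had 4 CCAAT. A match of letters is a description and not a site of binding.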

How the data were processed

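Smart-seq2 libraries of 10 single mouse oocytes were used, per the labels' protocols, with groups and replicate numbers from the sample titles. The deposited files hold TPM for each Ensembl transcript. The unit was read from the values, which sum to the same total in each library, as TPM does. Bowtie 0.12.2 and the build mm10 are named, per the submitters' processing notes. Not given in the sources used here are the abundance program, the annotation release and strand use, so antisense reads cannot be told apart. Estimated abundances can move reads between similar transcripts. TPM keeps no depth, so there is no counting interval, and the libraries' own spread sets the precision. No 2 libraries were identical.

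Transcripts were summed to genes with GENCODE M21 (GRCm38, the same assembly as mm10), which matched 113492 of 115270, and the others held 0.531% to 0.753% of each library's TPM (Python 3.11.15, pandas 2.3.3, numpy 2.4.6, matplotlib 3.10.9). All 10 libraries entered limma 3.58.1 (R 4.3.3) on log2(TPM + 1), for 11664 genes averaging 1 TPM or more, with an intensity trend, robust moderation, no covariate and Benjamini-Hochberg adjustment at 0.05. Tested on 10 simulated data sets with 200 changed genes, it recovered 31% of 2-fold and 82.6% of 4-fold changes, with 4.42% of calls false. The members and all lists were chosen with earlier results of these data known. Named are the 10 members, their transcripts with at least 5% of the gene's TPM, the 2 most abundant genes of each related list, and the 3 genes closest to H1foo and to H2afz. Cell type markers and genes listed at or near 0 are named to complete their lists, and genes picked after their values were seen are marked. A gene sharing at least 20% of a member's 31-base words counted as a copy. The fold changes understate changes of low genes. Alternatives were another pseudocount, filters, scalings, library weights, the replicate block, library sets, an exact permutation test, coding transcripts alone, copies added, and each library left out.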

Additional observations from a re-analysis of the deposited data

Results flagged for a closer look

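Npm2 in TubA replicate 4, at 5206 TPM, stood far from the other 4 TubA libraries, which lay between 903 and 1577 TPM. Its gap to the nearest of them took up more of the group's range than Dixon's 95% limit for 5 samples (0.71) allows. Such a gap marks about 1 in 20 groups by chance if values are normally distributed, and 20 groups of values, the 10 genes in both groups, were examined. The rule was applied to TPM, where high values stand out more, and was not run on the log2(TPM + 1) scale used for the differences. The same library held 4353 TPM of the 9-exon Npm2 transcript and 8123 TPM of Zp3, the highest of all libraries for each, while its H1foo, at 11009.7 TPM, was the lowest of the TubA libraries. In control libraries the highest Npm2 was 3486 TPM, in replicate 4. Without this library the Npm2 difference was -0.61 in place of -0.16 on the log2(TPM + 1) scale. What sets it apart was not tested.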

How the results depend on the processing

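The count of 1 gene past the adjusted threshold over all genes became 0 with genes filtered at a mean of 5 TPM, 0 with the replicate number as a block, and 0 by the exact permutation test, whose smallest p of 0.00794 cannot pass adjustment. At an unadjusted p under 0.05 these gave 166, 313 and 299 genes, with fewer genes tested under the filter at 5 TPM. Against 293 of 11664 genes at first, the unadjusted count without a filter was 549, but of 22278 genes. It was 539 with library weights and 452 without control replicate 3, and the cause of these was not tested. Leaving out each library in turn gave from 1 to 1. The 10 genes had 0 past the threshold under every setting run, and at an unadjusted p under 0.05 they had 1, or 2 without TubA replicate 5 and without control replicate 4. Over all genes the unadjusted counts were then 314 without TubA replicate 5 and 403 without control replicate 4. The labels do not say whether replicate numbers pair the libraries. Residuals of TubA and control libraries with the same number correlated at 0.00, -0.00, -0.31, 0.48 and 0.26. Of the 5 TubA libraries, 2 correlated best with their own number. These values cannot show whether the libraries share an animal or culture.

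Of 218 recomputed differences of the 10 genes over 22 alternatives, 215 moved by less than the spread within groups. The others were Hira from coding transcripts alone (0.21) and H3f3a within either library set (0.37 and -0.32). Part of the 218 could not move, since a gene filter and a replicate block leave a difference unchanged. Copies were added for H2afz alone. The spread is also a wide measure for some genes, at 0.98 for Npm2. Npm2 went from -0.16 to -0.75 with library weights and still counted as within it. So did H1f0, from -0.52 to -0.13 in the second library set. H1foo, H1f0 and H2afz kept their sign in all 22, some of which could not change it. For H2afz, whose groups did not overlap, the sign could not change when libraries were left out, split or weighted. The sign changed in 7 of 21 alternatives for H2afv, in 6 of 22 for Nasp, in 3 of 22 each for H3f3a and Npm2, in 2 of 22 each for H3f3b and Slbp, and in 2 of 21 for Hira. With 5 libraries in each group, an unknown depth and 31% of simulated 2-fold changes recovered, a difference that was not called is not shown to be absent. H2afv and Hira, at a few TPM, lie below the genes changed in the simulation and are limited most.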

Other observations

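Genes that varied like the 9-exon transcript of Npm2 were also counted. Of 5979 protein-coding genes that averaged 10 TPM or more, 255 had a Pearson r above 0.9 with that transcript over the 10 libraries after each group's mean was subtracted, and 43 had one below -0.9. By this measure Zp3 was at 0.98, but Zp1 and Zp2, at 0.89 each, fell short of 0.9. No such count was made for another gene or transcript, so it is not known whether these are unusual. These counts were made after the values were seen and describe libraries that share 1 scaling.

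In the set of libraries with TubA replicates 1 and 2 and control replicates 1 to 3, H1f0 was at 60.5 and 110.1 TPM in TubA libraries and between 114 and 184 TPM in control libraries. In the other set it was at 75.4, 108 and 135 TPM in TubA libraries and at 106 and 121 TPM in control libraries. The sets were found from the same values and are no label of the study.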
